A study of Mus musculus with 3 samples.

Results

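Neutrophils were a small minority of the cells captured from the P10 heart, 109 of the 10550 cells that passed the cell filter. They were chosen by their own RNA counts. A cell was kept when S100a8, S100a9, Ngp, Camp, Ltf, Retnlg and Cd177 together made up at least 2% of its unique molecular identifiers (UMIs, the count of captured RNA molecules) and at least 4 of these 7 genes were detected. It also had to hold less than 0.3% of UMIs from the macrophage genes C1qa, C1qb and C1qc, and at most 2 UMIs of the monocyte genes Ly6c2 and Ccr2. The levels of these genes are therefore given as a description. The study placed C57BL/6 mice in 3 groups at postnatal day 10: sham surgery with vehicle (P10-Sham_Vehicle), a suture closing the left anterior descending artery with vehicle (P10-MI_Vehicle), and the same infarct surgery with SB225002 (P10-MI_SB225002), an antagonist of the chemokine receptor CXCR2. Cells were taken 3 days after surgery, at postnatal day 13, from infarct and border zones and sorted as CD45+F4/80+, a gate meant for macrophages and monocytes. Each group is 1 library made from pooled hearts, so condition and library cannot be told apart and no difference between groups was tested. Intervals in brackets are 95% intervals and cover counting error only.

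Neutrophils are short-lived phagocytes that leave the bone marrow in response to chemokines acting on CXCR2 and reach injured myocardium early. They fill their granules in a fixed order while they mature: primary granules first (myeloperoxidase and elastase), then secondary granules (lactoferrin, the cathelicidin Camp and the neutrophilic granule protein Ngp), then tertiary granules with gelatinase. Late cells lose transcripts of the early granules and gain Retnlg, Cxcr2 and Csf3r. S100a8 and S100a9, which pair to form calprotectin, are abundant in the cytosol throughout.

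The promoters of Ngp, Camp, Ltf and Retnlg are shown because the first 3 genes move together from cell to cell in these data while Retnlg does not. Ngp, Camp and Ltf all lie on chromosome 9 and Retnlg on chromosome 16. The sequences come from RefSeq promoter windows on build GRCm38.p6, read 5′ to 3′ on the strand of the gene and stopped before the annotated start. Capitals mark matches to TTNNGNAA or its reverse complement TTNCNNAA, the form of site bound by C/EBP factors, among which C/EBP epsilon drives secondary granule genes.
Ngp, chr9:110419558-110419746, plus strand: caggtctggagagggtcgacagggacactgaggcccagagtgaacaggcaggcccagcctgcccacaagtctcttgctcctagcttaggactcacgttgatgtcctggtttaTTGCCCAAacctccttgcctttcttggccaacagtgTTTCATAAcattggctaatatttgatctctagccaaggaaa
Camp, chr9:109849618-109849706, minus strand: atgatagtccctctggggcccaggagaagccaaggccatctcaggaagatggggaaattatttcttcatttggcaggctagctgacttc
Ltf, chr9:111019042-111019270, plus strand: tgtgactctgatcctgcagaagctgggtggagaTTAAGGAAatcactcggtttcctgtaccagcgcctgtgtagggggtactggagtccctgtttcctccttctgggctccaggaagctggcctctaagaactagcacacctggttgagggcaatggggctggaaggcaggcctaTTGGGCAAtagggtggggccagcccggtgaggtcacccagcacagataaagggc
Retnlg, chr16:48872358-48872607, plus strand: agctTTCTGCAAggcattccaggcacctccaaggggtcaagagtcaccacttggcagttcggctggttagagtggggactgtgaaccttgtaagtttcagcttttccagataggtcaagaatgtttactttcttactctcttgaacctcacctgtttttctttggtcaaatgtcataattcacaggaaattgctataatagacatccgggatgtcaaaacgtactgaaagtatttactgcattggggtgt
In the full windows of 250 bases, Ngp held 3 matches, Ltf 2, Retnlg 1 and Camp 0, and 36.8% of all 32851 promoter windows of that length held at least 1. A match is a stretch of letters and not a measured binding site.

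The 7 marker genes made up a median of 27.7% of UMIs per cell in P10-Sham_Vehicle, 28.5% in P10-MI_Vehicle and 24.8% in P10-MI_SB225002. These genes chose the cells. Csf3r, the receptor for the cytokine that drives neutrophil production, was not used by the rule and was detected in 80.0%, 79.3% and 85.7% of the neutrophils of the 3 groups in that order, compared with 26.4% to 51.1% of monocytes, 9.14% to 13.9% of macrophages and 0% to 11.9% of endothelial cells. Median depths were 3640 to 5628 UMIs per endothelial cell and 4293 to 8695 per neutrophil. Cxcr2 was detected in 80.0%, 86.2% and 85.7% of neutrophils and in 2.33% to 4.48% of endothelial cells. The neutrophil surface antigen gene Ly6g, also outside the rule, was detected in only 0%, 20.7% and 37.1% of neutrophils. It was found in 0% of monocytes and at most 0.0988% of macrophages.

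Markers of eosinophils, basophils and mast cells were at or near 0. No UMI of the 6 eosinophil markers was found in any neutrophil, and the basophil and mast cell list gave 1 UMI in all. The primary granule genes Mpo, Elane and Ctsg had 0 UMIs in the neutrophils of every group, which allows up to 29.9 counts scaled to a total of 1000000 UMIs (CPM) in P10-Sham_Vehicle, 11.4 CPM in P10-MI_Vehicle and 9.20 CPM in P10-MI_SB225002. RNA of dividing cells was rare, with at least 3 UMIs of 14 proliferation genes, the list of 15 without Hmgb2, in 1, 1 and 0 neutrophils. Mpo, Elane and Ctsg are made at the promyelocyte stage. They are 3 of 7 genes on the primary granule list, whose sum of 2124, 1845 and 3009 CPM was carried by Srgn at 2114, 1826 and 2996 CPM, a granule proteoglycan that other leukocytes also make.

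Adgre1, which encodes F4/80, was scarce in the neutrophils despite the sort. It was detected in 20% (2.52 to 55.6) of P10-Sham_Vehicle, 20.7% (7.99 to 39.7) of P10-MI_Vehicle and 17.1% (9.18 to 28.0) of P10-MI_SB225002 neutrophils, compared with 92.4%, 87.6% and 83.2% of macrophages. The levels were 19.9, 45.7 and 42.9 CPM in neutrophils. Endothelial cells were close to this, at 21.2, 44.7 and 44.3 CPM, and fibroblasts lower, at 16.3, 14.9 and 7.44 CPM. Whether Adgre1 in neutrophils was free RNA was not tested. Ptprc, which encodes CD45, was detected in 81.4% to 90.0% of neutrophils.

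Macrophage RNA was present at a low level and unevenly. The 14 macrophage markers summed to 738 CPM in P10-Sham_Vehicle neutrophils, with 12 of 14 genes detected, to 2595 CPM in P10-MI_Vehicle, with 14 detected, and to 2453 CPM in P10-MI_SB225002, with 13 detected. In macrophages of the same libraries the sum was between 27289 and 28791 CPM. Per neutrophil the list took a median of 0.0215% of UMIs in both vehicle groups and 0.0507% in P10-MI_SB225002, with highest cells at 1.28%, 1.36% and 2.73%. The 8 monocyte markers summed to 150, 822 and 641 CPM. Both lists were thus lower in the sham neutrophils than in those of either infarct library, and their part in the differences given below was not tested.

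The share of neutrophils was lowest in P10-Sham_Vehicle and highest in P10-MI_SB225002. There were 10 among 2352 cells in P10-Sham_Vehicle, 0.425% (0.204 to 0.781). P10-MI_Vehicle held 29 among 3454 cells, 0.840% (0.563 to 1.20). P10-MI_SB225002 held 70 among 4744 cells, 1.48% (1.15 to 1.86). The difference between P10-MI_Vehicle and P10-Sham_Vehicle was 0.414 percentage points (-0.0359 to 0.840), an interval that includes 0, and -0.0678 points when no Ly6c2 or Ccr2 UMI was allowed. P10-MI_SB225002 lay 0.636 points (0.149 to 1.11) above P10-MI_Vehicle. With the rule applied to cells thinned to 1000 UMIs it lay 0.246 points (-0.464 to 0.935) above, an interval that includes 0. Both comparisons use the same P10-MI_Vehicle library. The gate acts on F4/80, so these are shares of sorted cells and not of the heart's leukocytes.

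The limits on macrophage and monocyte RNA removed most cells with neutrophil RNA. The marker terms alone were met by 59, 156 and 274 cells, which is 2.51%, 4.52% and 5.78% of the 3 libraries. The differences were then 2.01 points (1.03 to 2.96) between P10-MI_Vehicle and P10-Sham_Vehicle and 1.26 points (0.271 to 2.23) between P10-MI_SB225002 and P10-MI_Vehicle. Of the cells removed, 16, 34 and 70 failed on C1q RNA alone, 15, 64 and 72 on Ly6c2 and Ccr2 alone, and 18, 29 and 62 on both. What these cells were was not tested.

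Few cells lay near the marker limit. The lowest marker shares inside were 2.88%, 3.27% and 3.62%, and the highest outside were 1.69%, 1.31% and 1.26%. The C1q limit was less clear, with 0.283% as the highest value inside and 0.303% as the lowest outside. The limit on Ly6c2 and Ccr2 cut through a continuous range, with 36 cells at 0 UMIs, 38 at 1 and 35 at 2 inside, and 11 at 3 and 25 at 4 outside. Barcodes recurred between libraries, 1260 to 1844 for each pair, but no barcode was a neutrophil in more than 1 library (0 in each pair). Within a library several sets of neutrophils had near-equal values. In P10-MI_SB225002, cells of 3528, 3547, 3547 and 3596 UMIs had 1180 to 1232 genes and marker shares of 23.2% to 23.5%. Cells of 3292, 3454 and 3708 UMIs there had marker shares of 36.1% to 37.1%. In P10-MI_Vehicle, cells of 18628 and 16308 UMIs had marker shares of 35.2% and 35.4%, and cells of 2802, 4461 and 4730 UMIs 27.6% to 28.8%. All of these cells held at least 1% of UMIs from Ngp, Camp and Ltf together, the upper band below. Whether such barcodes came from the same cell was not tested. All counts, intervals and correlations here treat each barcode as a separate cell.

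Calprotectin genes and stefins dominated the RNA of these cells. S100a8 and S100a9 together took 28.8% of neutrophil UMIs in P10-Sham_Vehicle, 25.5% in P10-MI_Vehicle and 22.6% in P10-MI_SB225002. The lowest, median and highest cell were at 13.6%, 24.8% and 33.9% in P10-Sham_Vehicle, at 5.11%, 25.1% and 33.8% in P10-MI_Vehicle, and at 0.721%, 22.1% and 35.7% in P10-MI_SB225002, so the groups overlapped over nearly their whole range. S100a9 was also detected in 25.6% to 45.2% of endothelial cells and 31.7% to 47.4% of fibroblasts. Its level in the 3 libraries was 4090, 17608 and 5263 CPM in endothelial cells and 4782, 96.5 and 609 CPM in fibroblasts. The 7 markers together had medians of only 0.0111%, 0.0131% and 0.0264% per endothelial cell, so this RNA was unevenly spread over them. Genes of the stefin A family (Stfa1, Stfa2, Stfa2l1, Stfa3, BC100530 and Gm5483), cysteine protease inhibitors, took 18%, 11.8% and 10.4% of UMIs. These genes are near-identical copies of one another, so reads may have been split between them and single members are uncertain.

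Secondary granule genes separated the neutrophils into cells with much and cells with little of them. Ngp ranged from 0.146% of UMIs through a median of 0.514% to 2.41% per cell in P10-Sham_Vehicle, from 0% through 0.488% to 4.53% in P10-MI_Vehicle, and from 0% through 0.167% to 2.40% in P10-MI_SB225002. Ltf reached 0.812%, 3.00% and 2.64% in the highest cells, with medians of 0.131%, 0.190% and 0.0449%. Camp reached 0.672%, 1.83% and 1.89%, with medians of 0.133%, 0.211% and 0.0360%. The ranges overlapped in all 3 groups, and the medians were lowest in P10-MI_SB225002.

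The same cells held all 3 transcripts. Spearman's rho across cells, as a description within a library, was 0.87 for Ngp with Camp, 0.93 for Ngp with Ltf and 0.89 for Camp with Ltf over the 29 cells of P10-MI_Vehicle. Over the 70 cells of P10-MI_SB225002 it was 0.84, 0.80 and 0.85. Ngp with Retnlg gave -0.33 and -0.14. All of these are shares of UMIs of the same cells in 1 library.

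At a line of 1% of UMIs for Ngp, Camp and Ltf together, 4 of 10 neutrophils of P10-Sham_Vehicle were in the upper band (40.0%, 12.2 to 73.8), 16 of 29 of P10-MI_Vehicle (55.2%, 35.7 to 73.6) and 24 of 70 of P10-MI_SB225002 (34.3%, 23.3 to 46.6). The difference was 15.2 points (-23.8 to 48.5) for P10-MI_Vehicle compared with P10-Sham_Vehicle and -20.9 points (-42.3 to 2.16) for P10-MI_SB225002 compared with P10-MI_Vehicle. Both intervals include 0. The bands are ranges of one score and not cell types, and 1, 3 and 5 cells lay close to the line. The near-equal barcodes named above are all in the upper band, and each is counted as a cell.

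Genes outside the score followed the bands. Among 1206 genes at 100 CPM or more in either band of P10-MI_Vehicle, 6.47% were at least 2-fold higher and 20% at least 2-fold lower in the upper band. Among 1306 genes in P10-MI_SB225002 these shares were 6.05% and 12.2%. The median log2 ratio over all these genes was -0.38 and -0.15, so values below are read against a shift toward the lower band. In P10-MI_Vehicle the 2 neutrophils with over 3000 genes were in the lower band and held 19430 and 10834 of its 126244 UMIs. Their part in the band ratios was not tested.

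Several genes outside the score differed between the bands. Chil3, a chitinase-like secondary granule protein, stood at 901 CPM in the upper and 55.5 CPM in the lower band of P10-MI_Vehicle, a log2 ratio of 4.02 (2.94 to 5.37), and at 536 and 61.1 CPM in P10-MI_SB225002, a log2 ratio of 3.13 (2.26 to 4.1). Cebpe, the transcription factor that drives secondary granule genes, gave log2 ratios of 2.26 (0.86 to 4.0) and 2.63 (1.40 to 4.02). Serpinb1a, an inhibitor of neutrophil serine proteases, gave 1.54 and 1.92, and Lcn2, the siderophore-binding lipocalin of secondary granules, gave 1.07 and 0.81. Cybb, the catalytic subunit of the NADPH oxidase, gave 3.31 (2.52 to 4.21) and 1.15 (0.55 to 1.75). The 5 measured transcription factors of granulopoiesis did not go one way, with 1 higher and 4 lower in the upper band of P10-MI_Vehicle, at a median of -0.55, and 2 higher and 3 lower in that of P10-MI_SB225002, at a median of -0.48. Srgn was lower, at -1.57 and -0.86.

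Of the mature neutrophil genes, 12 of 17 at 100 CPM or more were lower in the upper band of P10-MI_Vehicle and 15 of 18 in that of P10-MI_SB225002, with 6 and 5 at least 2-fold lower. Of all genes, 850 of 1206 and 762 of 1306 were lower, so the first of these shares was near that of all genes. The log2 ratio was -1.34 and -1.23 for Csf3r and -0.55 and -0.99 for Cxcr2. For the chemokine gene Ccl6 it was -2.72 and -1.68. Retnlg, a rule gene, was at -1.35 and -0.39. Il1b was found almost only in the lower band of P10-MI_SB225002, at 760 CPM compared with 10.3 CPM in the upper band. The immediate-early genes were also lower in the upper band, 13 of 14 in P10-MI_Vehicle and 13 of 15 in P10-MI_SB225002, at medians of -0.73 and -0.59.

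For sham and infarct, the sums rest on 100295 neutrophil UMIs in P10-Sham_Vehicle, where 1 UMI is 9.97 CPM, and 262823 in P10-MI_Vehicle, where it is 3.8 CPM. Of 1069 genes at 100 CPM or more in either library, 174 (16.3%) were at least 2-fold higher after MI and 52 (4.86%) at least 2-fold lower. At any size, 647 were higher and 422 lower, against which the gene lists that follow are read. Scaling by TMM factors put these counts at 123 and 96, so the share of higher genes among both was 77.0% per total UMIs and 56.2% with TMM. The median log2 ratio of all these genes was 0.16 per total UMIs and -0.06 with TMM.

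The calprotectin genes differed little between sham and infarct neutrophils. S100a8 was at 122838 and 121572 CPM, a log2 ratio of -0.01 (-0.04 to 0.02), and S100a9 at 165542 and 133630 CPM, a ratio of -0.31 (-0.34 to -0.28). S100a6, a related calcium-binding protein gene, was at 3270 and 7359 CPM, 1.17 (1.0 to 1.34) higher on the log2 scale in P10-MI_Vehicle.

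Secondary granule genes went both ways, 4 of 9 higher and 5 lower after MI at a median log2 ratio of -0.19, with Camp 2-fold higher and Olfm4 2-fold lower (16.3% and 4.86% of all genes). Camp was at 2223 and 5106 CPM, a log2 ratio of 1.20 (0.99 to 1.41), but 1 cell held 69.1% of its UMIs in P10-Sham_Vehicle. Ltf was at 3769 and 4497 CPM and Ngp at 11037 and 9584 CPM. Olfm4, a glycoprotein of secondary granules made by a subset of neutrophils, was found in 1 of 10 cells in P10-Sham_Vehicle and 2 of 29 in P10-MI_Vehicle. The list holds 4 genes of the rule.

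Late genes were nearly level between sham and infarct. Of the mature neutrophil genes, 11 of 17 were higher and 6 lower, at a median of 0.10, with 2 at least 2-fold higher and 0 at least 2-fold lower. The share of higher genes was near that of all genes, 647 of 1069. With TMM factors 4 were higher and 13 lower. The genes at 2-fold were Il1r2, the decoy receptor for interleukin 1, at 269 and 624 CPM with a log2 ratio of 1.21 (0.62 to 1.86), and Ccl6, at 69.8 and 270.1 CPM with a ratio of 1.95 (0.84 to 3.32). Cxcr2 was at 429 and 457 CPM, a ratio of 0.09 (-0.42 to 0.63). Ly6g, the surface antigen that defines mouse neutrophils in flow cytometry, had 0 UMIs in the sham neutrophils and 60.9 CPM after MI, at least 2.04-fold higher when set against 3 counts in the sham library.

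The stefins were lower after MI. Of the 12 genes of the list of stefins and other protease inhibitors, 8 were lower and 4 higher, at a median of -0.48, beside 422 of 1069 of all genes lower. Stfa1 was at 34289 and 16471 CPM, a log2 ratio of -1.06 (-1.12 to -0.99), and Stfa2l1 at 14437 and 7290 CPM, a ratio of -0.99 (-1.09 to -0.89). Per cell the stefin A genes summed above took from 12.5% through a median of 17.0% to 20.2% of UMIs in P10-Sham_Vehicle and from 0.307% through 13.4% to 30.4% in P10-MI_Vehicle, so the ranges overlapped. Serpinb1a and Cstb, cystatin B, were the 2 members at least 2-fold higher after MI, Cstb at -0.50 with each cell weighted equally.

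Several of the highest log2 ratios after MI rested on single cells. Cxcl2, a chemokine that acts on CXCR2, had 1 UMI in the sham neutrophils and 818 CPM in P10-MI_Vehicle, where it was found in 13 of 29 cells and 1 cell held 53.0% of its UMIs. S100a4 had 0 UMIs in sham and 236 CPM after MI, at least 7.89-fold higher against 3 counts, with 67.7% in 1 cell. Fn1, fibronectin, had 0 UMIs in sham and 221 CPM after MI, with 87.9% in 1 cell. Apoe, a macrophage-rich apolipoprotein gene, was at 160 and 852 CPM, a log2 ratio of 2.42 (1.69 to 3.25), and Lgmn, a lysosomal protease, at 0 and 160 CPM. Apoe is on the macrophage list and Fn1 on the monocyte list, and all 6 measured macrophage and 4 measured monocyte markers were higher after MI, at medians of 2.19 and 2.33.

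For SB225002, the sums rest on 262823 UMIs in P10-MI_Vehicle and 326066 in P10-MI_SB225002, where 1 UMI is 3.07 CPM. Of 1211 genes at 100 CPM or more in either library, 84 (6.94%) were at least 2-fold higher with SB225002 and 69 (5.7%) at least 2-fold lower. The share of higher genes among both was 54.9% per total UMIs and 39.1% with TMM factors. The median log2 ratio of all these genes was 0.23 per total UMIs and 0.11 with TMM. P10-MI_Vehicle is the reference here and the infarct group above, so the values of the comparisons are not independent.

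Secondary granule genes were lower with SB225002, 6 of 9 at a median of -0.39, of which 3 were at least 2-fold lower and 1 at least 2-fold higher (5.7% and 6.94% of all genes). Of the 9 genes, 4 chose the cells, Ngp and Ltf among them. Ngp stood at 9584 CPM in P10-MI_Vehicle and 4481 CPM in P10-MI_SB225002, a log2 ratio of -1.10 (-1.19 to -1.0). Ltf stood at 4497 and 2119 CPM, -1.09 (-1.22 to -0.95), and Camp at 5106 and 2598 CPM, -0.98 (-1.10 to -0.85). Chil3, which the rule did not use, stood at 495 and 202 CPM, -1.29 (-1.74 to -0.85). Lcn2 differed less, at 9611 and 7354 CPM, -0.39 (-0.47 to -0.30), and Mmp8, neutrophil collagenase, was at 1351 and 1432 CPM. Olfm4 went the other way, from 22.8 CPM in 2 cells to 270 CPM in 10 of 70 cells.

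Of the mature neutrophil genes, 16 of 18 were higher with SB225002 at a median log2 ratio of 0.71, with 4 at least 2-fold higher and 0 at least 2-fold lower. Of all genes, 794 of 1211 were higher and 6.94% at least 2-fold higher, against which the lists that follow are also read. Retnlg, a resistin-like secreted protein and a rule gene, stood at 8705 and 20968 CPM, 1.27 (1.20 to 1.34), and per cell went from 0% through 0.392% to 4.23% in P10-MI_Vehicle and from 0% through 1.95% to 5.42% in P10-MI_SB225002. The medians were apart while the ranges overlapped. Cxcr2, the target of SB225002, stood at 457 CPM (379 to 546) and 767 CPM (675 to 868), a log2 ratio of 0.75 (0.43 to 1.07). Per cell it went from 0% through 0.0345% to 0.292% in P10-MI_Vehicle and from 0% through 0.0732% to 0.334% in P10-MI_SB225002. Csf3r stood at 419 and 702 CPM, 0.75 (0.41 to 1.09).

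The 3 late genes with the highest ratios were a surface antigen, a lectin receptor and a regulator of lipolysis. Ly6g stood at 60.9 and 181 CPM, 1.57 (0.76 to 2.47), and was found in 6 of 29 and 26 of 70 cells. Clec4d, a C-type lectin receptor, stood at 160 and 475 CPM, 1.57 (1.07 to 2.10), and G0s2, an inhibitor of triglyceride lipase, at 145 and 393 CPM, 1.44 (0.91 to 2.0). Over 14 settings of processing and cell choice, the reported one included, 13 to 16 of the 18 late genes were higher with SB225002, at medians of 0.31 to 0.74, and the lower band alone gave 15 of 18 at a median of 0.48. The median of 0.31 came from neutrophils with no C1q UMI, where all genes had a median of 0.35. In that setting 1 of the 18 was at least 2-fold higher, beside 237 of 1215 of all genes, so the late genes did not stand above them.

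Besides Cxcr2, 4 genes of the CXCR2 axis reached 100 CPM, and 2 of them were higher with SB225002 and 2 lower. Gnai2, a G protein subunit through which CXCR2 signals, stood at 860 and 886 CPM, 0.04 (-0.21 to 0.30), and Arrb2, the arrestin that binds the active receptor, at 160 and 215 CPM, 0.43 (-0.15 to 1.01). Cxcl2 stood at 818 and 546 CPM, -0.58 (-0.88 to -0.29), and at 0.24 after the cell with the most UMIs was left out of each library. Pf4, a platelet chemokine gene that is also on the macrophage list, was at -1.02.

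Il1b and other cytokine genes differed more. Il1b, encoding interleukin 1 beta, stood at 179 CPM in P10-Sham_Vehicle, 49.5 CPM in P10-MI_Vehicle and 537 CPM in P10-MI_SB225002, in 4 of 10, 5 of 29 and 24 of 70 cells. The log2 ratio was 3.44 (2.63 to 4.38) for P10-MI_SB225002 over P10-MI_Vehicle, while monocytes of the same libraries gave -2.36 and macrophages 0.37. Among upper band cells alone the ratio in neutrophils was -0.51. Il1b was almost absent from the upper band of both libraries, so that ratio rests on very few UMIs and gives no direction. In endothelial cells of P10-MI_SB225002, Il1b was at 34.4 CPM in 5.08% of cells. Osm, encoding oncostatin M, stood at 91.3 and 288 CPM, 1.66 (1.0 to 2.37), and Cebpb, a factor of emergency granulopoiesis, at 502 and 1052 CPM, 1.07 (0.77 to 1.37). Of the 7 measured genes of the cytokine list, 4 were higher and 3 lower.

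Immediate-early genes, which are transcribed within minutes of a stimulus and also during tissue digestion, were higher with SB225002 in 13 of 15, of which 6 were at least 2-fold higher, at a median of 0.73, beside 6.94% of all genes at least 2-fold higher. Socs3 stood at 91.3 and 301 CPM, 1.72 (1.06 to 2.43). Dusp1 stood at 213 and 485 CPM, 1.19 (0.74 to 1.65), Klf2 at 316 and 684 CPM, 1.11 (0.75 to 1.5), and Fos at 263 and 436 CPM, 0.73 (0.31 to 1.17). Jun stood at 270 and 184 CPM, -0.55 (-1.07 to -0.04). Among neutrophils with no C1q UMI, 12 of 15 genes of the list were higher, at a median of 0.54 beside 0.35 for all genes. In that setting 3 were at least 2-fold higher, beside 237 of 1215 of all genes, so that share was near that of all genes. In macrophages and monocytes of the same libraries these 15 genes were at medians of -0.63 and -0.98, with 15 of 15 lower in each.

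Of the adhesion and migration genes, 6 of 8 were higher with SB225002 at a median of 0.71, beside 794 of 1211 of all genes, with Itgal, the alpha chain of LFA-1, at 79.9 and 230 CPM, 1.53 (0.81 to 2.30). All 7 measured genes for microbe and complement receptors were higher at a median of 0.45, with 0 at least 2-fold. The 4 measured interferon-stimulated genes were higher at a median of 0.56, with Oas3, an antiviral oligoadenylate synthetase, at 45.7 and 120 CPM. In monocytes and macrophages of the same libraries these 4 genes were also higher, at medians of 0.76 and 1.17, so the difference was not particular to neutrophils. At least 3 UMIs of 11 interferon-stimulated genes (Isg15, Ifit1, Ifit2, Ifit3, Ifit3b, Rsad2, Oasl1, Oasl2, Irf7, Usp18 and Mx1) were found in 1 neutrophil of P10-Sham_Vehicle, 2 of P10-MI_Vehicle and 9 of P10-MI_SB225002.

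The oxidase and glycolysis genes showed no common direction of 2-fold size. Cybb stood at 624 and 304 CPM, -1.04 (-1.41 to -0.67), while 4 of the 6 measured NADPH oxidase genes were higher. Within the lower band Cybb was at 1.01. Of 11 glycolysis and hypoxia genes, 9 were higher and 2 lower at a median of 0.24, with 0 at least 2-fold in either direction, close to the 0.23 of all genes.

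Spp1 had the highest ratio but was not separated from free RNA. Spp1, encoding the secreted matrix protein osteopontin, stood at 129 and 1736 CPM, 3.75 (3.25 to 4.29), in 3 of 29 and 44 of 70 neutrophils. In P10-MI_SB225002 that is 62.9% (50.5 to 74.1) of neutrophils at a median depth of 4293 UMIs. Spp1 was detected in 47.2% of endothelial cells at 3773 UMIs and in 53.2% of fibroblasts at 7337 UMIs, and after thinning to 1000 UMIs in 23.5%, 23.3% and 14.5% of the 3 cell types. Spp1 was also higher in the other cell types of P10-MI_SB225002 than in those of P10-MI_Vehicle. Its level went from 408 to 2280 CPM in endothelial cells and from 57.7 to 1137 CPM in fibroblasts. In macrophages it went from 1441 to 5909 CPM and in monocytes from 4194 to 12000 CPM.

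The genes with the lowest ratios for SB225002 were mostly ribosomal protein genes. Of 76 measured Rps and Rpl genes, 75 were lower, 19 of them at least 2-fold, at a median of -0.77, while macrophages gave a median of 0.02 and monocytes -0.10. Rps28 stood at 864 and 221 CPM, -1.97 (-2.37 to -1.58). The median was -0.18 without the 2 neutrophils of P10-MI_Vehicle and 1 of P10-MI_SB225002 that had over 3000 genes, and -0.04 among neutrophils with no C1q UMI. The macrophage markers were also lower, 5 of 7 measured at a median of -0.92, and their part in this difference was not tested. For P10-MI_Vehicle over P10-Sham_Vehicle, 74 of 76 were higher at a median of 0.59, but the median was -0.38 with each cell weighted equally and -0.02 without the neutrophils with over 3000 genes. S100a10, an annexin partner, and Lmna, encoding lamin A, were also among the lowest, at -2.62 (-3.44 to -1.87) and -3.27 (-5.23 to -1.77).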

How the data were processed

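For each of 3 BMKGENE DG1000 libraries the authors deposited a table of UMI counts, unnormalized, with genes by symbol and barcodes not yet filtered for quality. The submitters' processing notes name mm10 and Seurat 4.1.0. The counting software is not given in the sources used here. Cells with 500 to 30000 UMIs, 500 to 5000 genes and under 10% mitochondrial UMIs were kept. The members and the 30 gene lists were chosen with earlier results of these data known. Named genes are those of the lists, the 10 highest and 10 lowest log2 ratios of each of the 2 comparisons, ranked by the interval bound nearest 0 among genes at 100 CPM or more and leaving out mitochondrial genes and genes of the rule, and the 10 genes with the highest CPM in each library.

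UMIs were summed over the neutrophils of a library and scaled to CPM. CPM carry exact Poisson intervals, shares exact Clopper-Pearson intervals, differences of shares Newcombe intervals and ratios exact conditional intervals. The 3 libraries hold 29323567, 32498608 and 34235864 UMIs in all barcodes. With 1 library per group, no test or p-value was made. PCR errors and the spread between hearts are not covered. Python 3.11.15, numpy 2.4.6, scipy 1.17.1, pandas 2.3.3 and scanpy 1.11.5 were used, with scaling factors from edgeR 4.0.16 and DESeq2 1.42.0 in R 4.3.3. Ratios and their intervals were tested on simulated counts.

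Doublets were kept. Scrublet called 3, 1 and 0 cells, too few to have worked, and no neutrophil (0) was among the cells with the highest 6% of scores. Monocytes for comparison had 5 or more UMIs of Ly6c2 and Ccr2, under 0.3% C1q UMIs and under 2% marker UMIs, and macrophages 0.3% or more C1q UMIs. Endothelial cells and fibroblasts had at least 3 of their markers detected. Alternatives covered the cell filter, the terms of the rule, scaling, depth and the gene filter, and 4 were added after seeing the data: no C1q limit, no C1q UMI, the cell with the most UMIs of a gene left out, and neutrophils with over 3000 genes left out. 1 gene of the lists is counted there but not reported here.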

Additional observations from a re-analysis of the deposited data

Results flagged for a closer look

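Barcodes that failed the cell filter also held cells that met the gene terms of the rule. In P10-MI_Vehicle these were 12 of 1057 filtered barcodes, 1.14% (0.588 to 1.97, exact 95% interval), above the share in the sham library, where it was 1 of 1038, 0.0963% (0.00244 to 0.536). In P10-MI_SB225002 it was 6 of 1039, 0.577% (0.212 to 1.3). In P10-MI_Vehicle 11 of the 12 were at or over the mitochondrial limit, and with a limit of 20% that library held 36 neutrophils in place of 29.

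The immediate-early genes were at a median log2 ratio of 0.73 for P10-MI_SB225002 over P10-MI_Vehicle in neutrophils and at -0.63 in macrophages and -0.98 in monocytes of the same libraries. The opposite directions drew attention, and the difference between cell types was not tested, since each group is 1 library. Among neutrophils with no C1q UMI the median was 0.54, beside 0.35 for all genes.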

How the results depend on the processing

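Limits are set by 10, 29 and 70 cells in 1 library per group. No paired analysis was possible because each group has 1 library and no result comes from a test. Of 1241 ratios of named genes recomputed under the alternatives, 931 stayed within their counting interval, 296 moved beyond it and 14 that were at least 2-fold apart as reported changed sign. In all 47 changed sign, the others being under 2-fold as reported. Where no cause is named, the cause was not tested.

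The difference in neutrophil share between P10-MI_Vehicle and P10-Sham_Vehicle was 0.414 points as reported, 1.63 with no limit on Ly6c2 and Ccr2, 1.16 with the rule applied to cells thinned to 1000 UMIs, and -0.0678 with no Ly6c2 or Ccr2 UMI allowed. The difference between P10-MI_SB225002 and P10-MI_Vehicle was 0.636 points and 1.13 with no C1q limit. It was 0.246 (-0.464 to 0.935) with the rule applied to thinned cells and 0.301 (-0.456 to 1.04) with no limit on Ly6c2 and Ccr2. It was 0.277 (-0.0615 to 0.602) with no C1q UMI and 0.528 (-0.162 to 1.17) with a mitochondrial limit of 5%. The intervals of these smaller differences include 0. The difference in upper band share between the same libraries was -20.9 points. It was 3.08 (-50.5 to 31.4) with no Ly6c2 or Ccr2 UMI allowed, which leaves fewer cells. Under the other alternatives it lay between -27.5 (-40.7 to -12.8) in thinned cells and -8.55 (-33.2 to 15.9) with a mitochondrial limit of 5%.

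For P10-MI_Vehicle over P10-Sham_Vehicle, 174 genes were at least 2-fold higher and 52 lower. The lower count was 96 with TMM factors, 98 with DESeq2 size factors, 81 with cells weighted equally, 87 in upper band cells and 144 with no C1q UMI. It was 161 lower and 332 higher in thinned cells, 213 and 289 in lower band cells, and 170 and 793 among genes with at least 10 UMIs, where more genes were counted. For P10-MI_SB225002 over P10-MI_Vehicle, 84 were higher and 69 lower. The lower count was 38 with cells weighted equally and 24 without cells of over 3000 genes, and the higher count was 186 in upper band cells. It was 238 higher and 120 lower in thinned cells, 131 and 172 in lower band cells, 237 and 29 with no C1q UMI, 127 and 42 without the cell with the most UMIs, and 543 and 371 among genes with at least 10 UMIs. With DESeq2 size factors the share of higher genes among both was 55.7% and 38.6% in the 2 comparisons, and the median ratio of all genes -0.07 and 0.11.

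The 14 log2 ratios at least 2-fold apart as reported that changed sign were these. For P10-MI_Vehicle over P10-Sham_Vehicle, Camp was at -0.96 in lower band cells, Il1b at 0.049, Hmgn2 at 0.46, S100a10 at -0.12 and Rps28 at -0.35 in thinned cells, Lgals1 at -0.58 and Ctsb at -0.17 with no C1q UMI, and Cstb at -0.50 and Rps28 at -0.11 with cells weighted equally. For P10-MI_SB225002 over P10-MI_Vehicle, Ngp was at 0.14, Ltf at 0.42, Chil3 at 0.14 and Cybb at 1.01 in lower band cells. Il1b was at -0.51 in upper band cells, a value that rests on very few UMIs. Ngp and Ltf are part of the score that sets the bands.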
